A study of Mus musculus with 10 samples.

Results

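The 6 genes described here encode the secreted chemokines *Ccl3*, *Ccl4*, *Ccl5*, *Ccl6* and *Ccl9* and the receptor *Ccr1*. They are the 6 probes of a mouse immune panel of 770 gene probes that carry these symbols, and all 6 were found. Their RNA was measured in YUMMER1.7 melanomas grown in 5 Siah2 WT mice and in 5 Siah2 KO (Siah2-/-) mice. YUMMER1.7 is a line of mouse melanoma cells with mutant Braf, injected under the skin of C57BL/6 males. The tumors of both groups hold the same injected line, which carries its own Siah2, so that the groups differ in the host: Siah2, a ubiquitin ligase, was deleted in every cell of the KO mice and in no injected cell. Neither group received a drug, and the labels give 1 collection time, day 11, and no age. The figure legend of the paper that reported these data puts the panel analysis at an earlier day. Each tumor gave 1 sample, and the labels name the tumors WT 2 to WT 6 and KO 1, 2, 3, 5 and 6.

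CC chemokines are small secreted proteins that draw leukocytes toward their source by binding receptors coupled to G proteins. Ccl3 and Ccl4, also called MIP-1 alpha and MIP-1 beta, and Ccl5, also called RANTES, are made by activated macrophages, T cells and natural killer (NK) cells and attract T cells, NK cells, monocytes and dendritic cells. Ccl6 and Ccl9 are rodent chemokines made largely by myeloid cells, and Ccr1, carried by monocytes, macrophages and neutrophils, is a receptor of Ccl3, Ccl5, Ccl6 and Ccl9.

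The 5 ligand genes lie beside each other on mouse chromosome 11, in the order *Ccl5*, *Ccl9*, *Ccl6*, *Ccl3* and *Ccl4* among the ligands of the panel, and *Ccr1* lies on chromosome 9. Promoter windows, which run from 250 bases before the annotated start of a gene to 50 after it, were found for 4 of the 6 genes in RefSeq, assembly GRCm38.p6. They are shown for 3 neighbours, *Ccl3*, *Ccl6* and *Ccl9*, because *Ccl3* differed between the groups and the other two did not pass the test. The 250 bases before each start follow, 5′ to 3′ on the minus strand, at chr11:83649379-83649628 for *Ccl3*, chr11:83593088-83593337 for *Ccl6* and chr11:83578637-83578886 for *Ccl9*. Capitals mark the longest run of bases that *Ccl6* and *Ccl9* share in these stretches.
Ccl3: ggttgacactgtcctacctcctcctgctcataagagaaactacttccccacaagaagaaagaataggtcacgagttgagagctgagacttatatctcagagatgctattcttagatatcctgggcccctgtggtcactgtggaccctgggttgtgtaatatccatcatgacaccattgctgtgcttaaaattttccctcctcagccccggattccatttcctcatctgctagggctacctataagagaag
Ccl6: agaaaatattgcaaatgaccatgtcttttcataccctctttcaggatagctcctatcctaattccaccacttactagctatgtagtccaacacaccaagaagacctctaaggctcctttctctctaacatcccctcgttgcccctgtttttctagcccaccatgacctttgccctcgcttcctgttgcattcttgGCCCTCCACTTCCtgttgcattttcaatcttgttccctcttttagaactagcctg
Ccl9: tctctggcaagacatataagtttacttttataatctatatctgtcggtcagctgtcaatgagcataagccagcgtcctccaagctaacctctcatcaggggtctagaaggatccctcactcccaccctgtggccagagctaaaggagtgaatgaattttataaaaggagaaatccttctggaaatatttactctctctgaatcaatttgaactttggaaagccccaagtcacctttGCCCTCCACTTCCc
The shared run of 13 bases begins 55 bases before the start of *Ccl6* and 14 bases before that of *Ccl9*. It occurs on either strand in 6 of 32851 RefSeq windows (0.0183%), those of *Ccl6* and *Ccl9* among them. The windows of *Ccl3* and *Ccr1* lack it. The run was picked because *Ccl6* and *Ccl9* share it, so this count is no test of a shared element. In a local alignment of the full windows, *Ccl6* and *Ccl9* matched over 74 columns with 58 identical bases, whereas the best match of *Ccl3* to *Ccl6* covered 12 columns and that to *Ccl9* covered 11. In these windows *Ccl6* was thus nearer to *Ccl9* than to *Ccl3* in sequence. Whether the sequences bear on the values in the tumors was not tested, and no window was found for *Ccl4* and *Ccl5*.

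The values are normalized counts, that is, counted probe molecules after background subtraction, scaled in each tumor to 20 reference genes. Some reference genes were themselves called different after this scaling. *Hprt* and *G6pdx* were higher in KO tumors, at log2 fold changes of 0.24 and 0.25, and *Gusb* and *Oaz1* lower, at −0.31 and −0.19. Tumors held 382860 to 581637 counts over the 770 probes before scaling, and the factor ran from 0.918 to 1.32 in the WT and from 1.03 to 1.60 in the KO group. None of the 6 genes was at the floor of the values in any tumor. Leukocyte genes, such as *Ptprc*, which encodes CD45, were higher in KO tumors, with 7 of 8 called and summed levels of 7409 to 11110 against 4906 to 6105 normalized counts. The gene not called was *Cd37*, at a log2 fold change of 0.01, and 31.3% of all 770 probes were called higher. Whether more cells of a type or more RNA per cell lay behind a higher value cannot be told apart in whole tumors. The panel has no *Siah2* probe among those used here, so the genotype could not be checked, and the labels name no separate batches. Levels are not compared between genes, because each probe captures its target with its own efficiency.

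Of the 6 genes, *Ccl3*, *Ccl4* and *Ccl5* were higher in Siah2 KO tumors and none was lower at an adjusted p under 0.05 (limma, Benjamini-Hochberg adjustment over all 770 probes). Over all probes, 31.3% were called higher and 9.74% lower, with a median log2 fold change of 0.24. The same 3 genes were higher in all 5 KO tumors than in any WT tumor, which held for 24.5% of all probes, while 7.01% were lower in all KO tumors. A share of 3 in 6 genes is thus to be read against a panel in which 31.3% of probes rose. By size, *Ccl4* ranked 9th and *Ccl3* 13th of 770 probes from the highest log2 fold change, and *Ccl5* ranked 83rd.

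**Figure D1:**
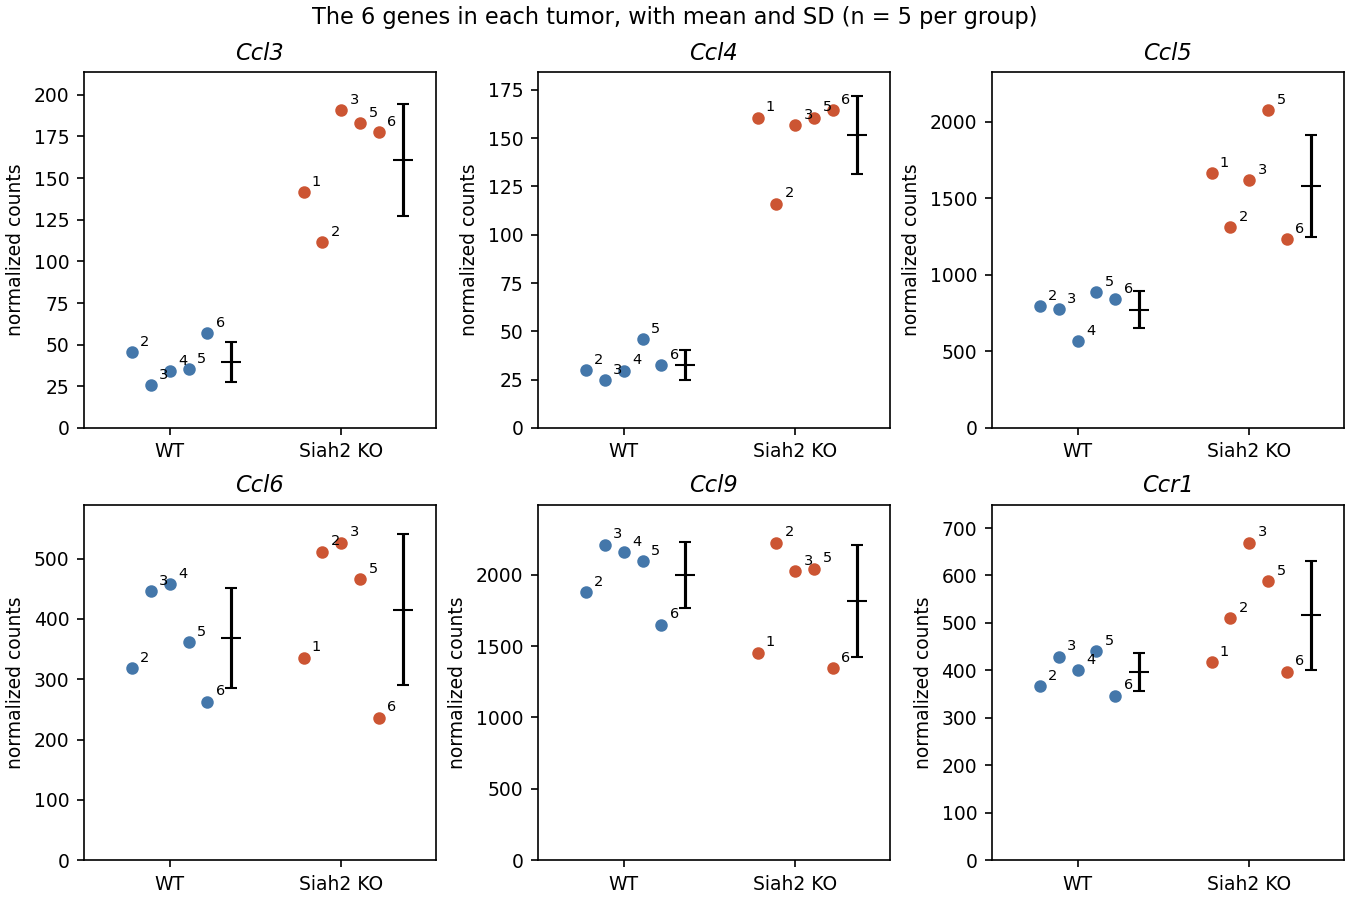
Normalized counts of the 6 genes in each of 5 WT (blue) and 5 Siah2 KO tumors (red), with the tumor's number beside each point and the mean and SD as a bar. The groups do not overlap in *Ccl3*, *Ccl4* and *Ccl5* and overlap in *Ccl6*, *Ccl9* and *Ccr1*.

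*Ccl3* had 45.4, 25.7, 34.3, 35.3 and 56.8 normalized counts in WT 2, 3, 4, 5 and 6. In KO 1, 2, 3, 5 and 6 it had 142, 111, 191, 183 and 178. The lowest KO tumor, KO 2, was thus clearly above the highest WT tumor, WT 6. KO tumors averaged 161 ± 33.4 and WT tumors 39.5 ± 11.9 (SD, n = 5 each). The fold change was 4.06, with a log2 fold change of 2.02 (SE 0.22, 95% interval 1.53 to 2.52, limma adjusted p = 0.000198). The two-sided exact permutation test over all divisions of the 10 tumors into 5 and 5 gave p = 0.0079, the smallest that it can give.

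*Ccl4* was 30.0, 24.7, 29.7, 45.9 and 32.7 normalized counts in WT 2, 3, 4, 5 and 6. Its KO values were 161, 116, 157, 161 and 164 in tumors 1, 2, 3, 5 and 6. KO 1, 3, 5 and 6 lay close together and KO 2 stood below them. KO 2 was also the lowest KO tumor in *Ccl3*. KO tumors averaged 152 ± 20.1 and WT tumors 32.6 ± 7.96 (SD, n = 5 each). *Ccl4* had the largest change of the 6 genes, 4.60-fold, with a log2 fold change of 2.20 (SE 0.16, 95% interval 1.83 to 2.57, limma adjusted p = 2.71e-05, exact permutation p = 0.0079).

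*Ccl3* and *Ccl4* were not shown to differ in the size of their change. The ratio of *Ccl3* to *Ccl4* differed between the groups by −0.18 on the log2 scale, with a 95% interval of −0.67 to 0.31 (limma adjusted p = 0.45, exact permutation p = 0.42). This interval still allows a change of *Ccl3* that is smaller than that of *Ccl4* by 0.67 on the log2 scale.

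*Ccl5*, known for its expression in memory and effector T cells and NK cells, was 796, 774, 568, 887 and 841 normalized counts in WT 2, 3, 4, 5 and 6. In KO 1, 2, 3, 5 and 6 it was 1663, 1310, 1618, 2074 and 1233. The groups did not overlap. WT 5 was the highest WT tumor and KO 6 the lowest KO tumor. The gap between them was smaller than the range of the KO tumors. The means were 1579 ± 334 and 773 ± 122 (SD, n = 5 each), a 2.03-fold difference. The log2 fold change was 1.02 (SE 0.17, 95% interval 0.65 to 1.40, limma adjusted p = 0.00121, exact permutation p = 0.0079). With scaling to the positive control probes in place of the reference genes the log2 fold change was 0.86 and the adjusted p 0.088.

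The change of *Ccl5* was smaller than those of *Ccl3* and *Ccl4*. The ratio of *Ccl3* to *Ccl5* was higher in KO tumors by 1.0 on the log2 scale (95% interval 0.49 to 1.51, limma adjusted p = 0.00254), and that of *Ccl4* to *Ccl5* by 1.18 (0.76 to 1.60, adjusted p = 0.000363). Both ratios had an exact permutation p of 0.0079. The reference gene factor cancels in such ratios.

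*Ccl6* was 318, 446, 457, 361 and 263 normalized counts in WT 2, 3, 4, 5 and 6. It was 336, 511, 527, 467 and 236.5 in KO 1, 2, 3, 5 and 6. The KO tumors held both the lowest value, in KO 6, and the highest, in KO 3. The KO mean was 415 ± 125 and the WT mean 369 ± 82.9 (SD, n = 5 each), with a log2 fold change of 0.14 and a 95% interval of −0.41 to 0.69 (limma adjusted p = 0.67, exact permutation p = 0.60).

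*Ccl9*, also called MIP-1 gamma, was 1879, 2212, 2159, 2093 and 1651 normalized counts in WT 2, 3, 4, 5 and 6. It was 1455, 2225, 2027, 2043 and 1344 in KO 1, 2, 3, 5 and 6. KO 1 and KO 6 were below all WT tumors, and KO 2 was above them by a small margin. The means were 1819 ± 393 in KO and 1999 ± 232 in WT tumors, and the log2 fold change was −0.16 (95% interval −0.52 to 0.20, limma adjusted p = 0.47, exact permutation p = 0.34). With the endogenous probes brought to a common median in every tumor, which moved the median change of all probes from 0.24 to −0.0074, *Ccl9* was lower by −0.42 with an adjusted p of 0.036. *Ccl6* had a negative log2 fold change under that scaling and did not pass the test.

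*Ccl9* thus stood apart from its neighbours *Ccl3*, *Ccl4* and *Ccl5* within the same tumors, and *Ccl6* from *Ccl3* and *Ccl4*. The ratio of *Ccl4* to *Ccl9* was 5.13-fold higher in KO tumors, that of *Ccl3* to *Ccl9* 4.52-fold and that of *Ccl5* to *Ccl9* 2.26-fold (limma adjusted p of 5.52e-05, 0.000227 and 0.00166, exact permutation p = 0.0079 each). The ratios to *Ccl6* were 4.18-fold higher for *Ccl4*, 3.69-fold for *Ccl3* and 1.84-fold for *Ccl5*, and the last of these did not pass the limma test (adjusted p = 0.061, exact permutation p = 0.032). The ratio of *Ccl6* to *Ccl9* differed by 0.30 on the log2 scale (95% interval −0.07 to 0.66, limma adjusted p = 0.18, exact permutation p = 0.048). The limma and the exact test thus fell on opposite sides of 0.05 for these last ratios, out of 15 ratios computed.

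**Figure D2:**
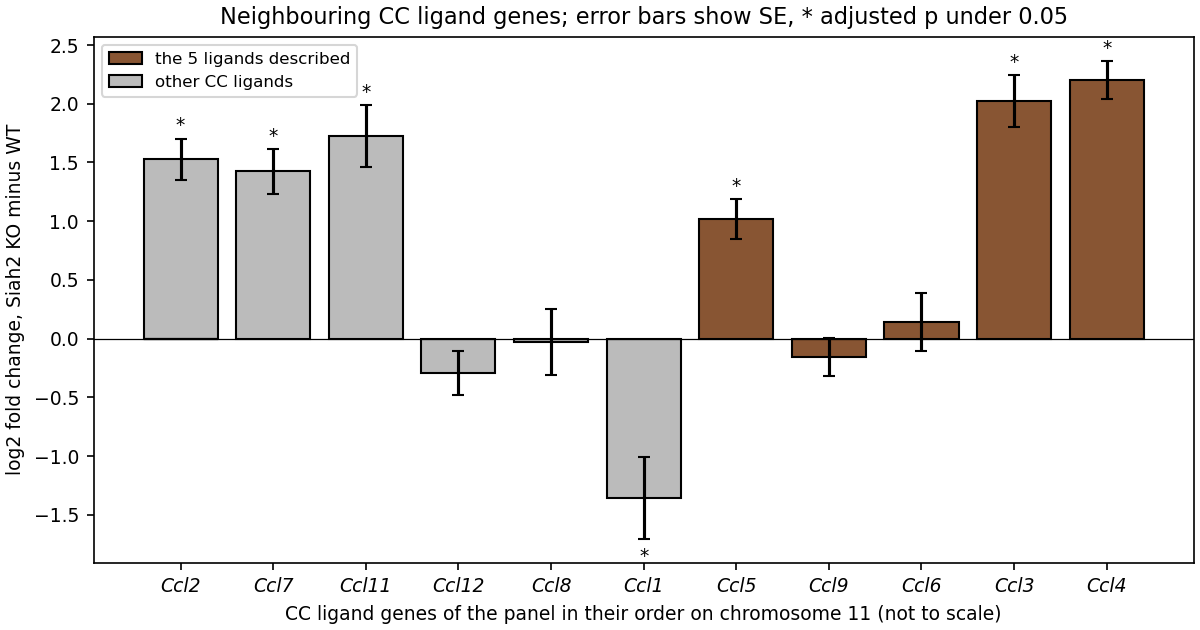
Log2 fold change (Siah2 KO minus WT) of the 11 CC ligand genes of the panel that lie on chromosome 11, in their order along it and not to scale. Error bars are the SE of the limma fit over 5 tumors in each group, and an asterisk marks an adjusted p under 0.05. *Ccl9* and *Ccl6*, near 0, sit between *Ccl5* and the pair *Ccl3* and *Ccl4*, which are higher in KO tumors.

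*Ccr1*, the receptor, was 366, 429, 401, 441 and 347 normalized counts in WT 2, 3, 4, 5 and 6. It was 417, 510, 669, 588 and 397 in KO 1, 2, 3, 5 and 6. KO 2, 3 and 5 were above every WT tumor, and KO 1 and KO 6 were within the WT range. The KO mean of 516 ± 115 was 1.28-fold the WT mean of 397 ± 40.0 (SD, n = 5 each). The log2 fold change of 0.36 had a 95% interval of 0.01 to 0.70 and did not pass the test across all probes (limma adjusted p = 0.090, exact permutation p = 0.071). Without KO 6 it was 0.44 with an adjusted p of 0.037. The rise of *Ccl3* exceeded the difference in *Ccr1* by 1.67 on the log2 scale and that of *Ccl4* by 1.85 (limma adjusted p of 0.000871 and 0.000147). *Ccl5* exceeded it by 0.66 (adjusted p = 0.023), though the adjusted p passed 0.05, reaching 0.059, where WT 3, WT 4 or KO 5 was left out. *Ccl9* was lower relative to *Ccr1* by −0.51 (adjusted p = 0.015).

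**Figure D3:**
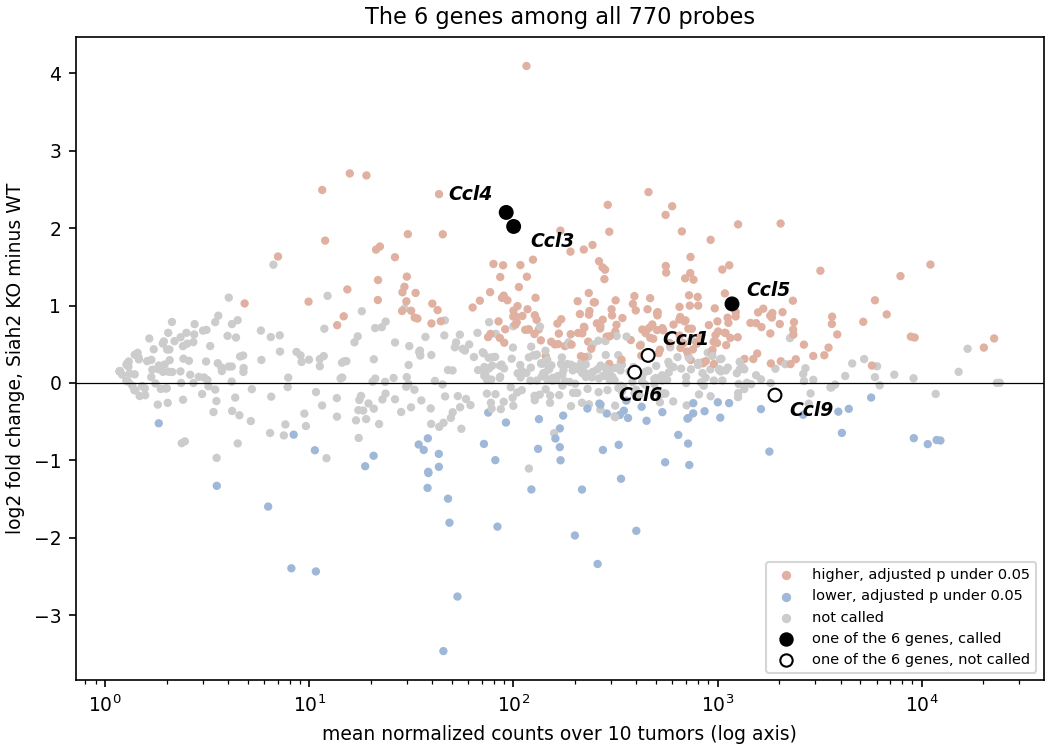
Log2 fold change (Siah2 KO minus WT) against the mean normalized counts over the 10 tumors (log axis) for all 770 probes, with the 6 genes as large circles. *Ccl4* and *Ccl3* lie near the upper edge at 2.20 and 2.02, *Ccl5* at 1.02, and the open circles of *Ccr1*, *Ccl6* and *Ccl9* lie among the probes that were not called.

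The cells known to make these chemokines were represented in the panel by gene lists. The counts of called genes below are to be read beside all 770 probes, of which 31.3% were called higher and 9.74% lower. Of 11 macrophage genes, 4 were higher in KO tumors (*Cd68*, *Msr1*, *Fcgr1* and *Cd14*), 1 was lower (*Mrc1*, log2 fold change −0.89) and the median log2 fold change was 0.27, near the 0.24 of all probes. Their summed level was 31490 to 53260 normalized counts in KO and 28830 to 37140 in WT tumors. Of 12 T cell genes, 7 were higher and 0 lower with a median of 0.72, and *Cd8a*, a marker of cytotoxic T cells, had a log2 fold change of 1.13. *Cd4*, a marker of helper and regulatory T cells, was at −0.29, *Cd6* at −0.23 and *Cd5* at −0.02, none of them called. Their sum was 857 to 1539 against 644 to 842, so that the ranges did not overlap. Of 5 NK cell genes, 4 were higher, with a median of 0.71 and sums of 1362 to 2095 against 842 to 1094. None of the genes in these 3 lists was at the floor in 5 or more tumors. Of 7 neutrophil genes 1 was called, higher, with sums of 314 to 1360 against 427 to 742, and *Ltf*, *Camp* and *Elane* were at the floor in at least 5 tumors. Of 4 dendritic cell genes 1 was higher, *Itgax*, with sums of 133 to 188 against 93.8 to 141. *Itgax* averaged 132 in KO and 73.3 in WT tumors and so made up most of these sums. *Flt3* was at −0.53, *Xcr1* at 0.07 and *Cd207* at 0.81, none of them called. Of 6 B cell genes 1 was higher, with sums of 21.4 to 54.5 against 17.6 to 26.5, and *Ms4a1*, *Cd79a* and *Blk* were at the floor in at least 5 tumors. The part of any of these cells in the higher *Ccl3*, *Ccl4* and *Ccl5* was not tested.

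The 6 genes were therefore also expressed relative to such lists, with the list's median on the log2 scale taken off tumor by tumor. Relative to 8 leukocyte genes, whose median was higher in KO tumors by 0.69, 7.27% of all probes were called higher and 44.2% lower. *Ccl3* and *Ccl4* were still higher on this scale, by 1.33 and 1.51 (limma adjusted p of 0.000848 and 0.000115). *Ccl5* was higher by 0.33 (95% interval 0.05 to 0.61, adjusted p = 0.048). That call was not firm, since the adjusted p was over 0.05 in 9 of 10 fits that left out 1 tumor each, in all but the one without WT 2, and reached 0.12. *Ccl9* was lower relative to leukocytes by −0.84 (adjusted p = 0.00596). *Ccl6*, at −0.55, and *Ccr1*, at −0.33, did not pass the test (adjusted p of 0.11 and 0.13).

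Relative to 17 T and NK cell genes, where 18.4% of probes were called higher and 14.0% lower, *Ccl3* was higher by 1.76, *Ccl4* by 1.94 and *Ccl5* by 0.76 (limma adjusted p of 0.000195, 3.40e-05 and 0.00169). The median used as the base of this scale was higher in KO tumors by 0.26, although the mean of the same genes was higher by 0.69. With the mean as the base, an alternative chosen after seeing the data, *Ccl3* and *Ccl4* were higher by 1.33 and 1.52 (adjusted p of 0.0019 and 0.000168), but *Ccl5* was at 0.33 with an adjusted p of 0.063 and *Ccl9* was lower by −0.84 with an adjusted p of 0.00394. With the median as the base *Ccl9* was at −0.42 (adjusted p = 0.11). *Ccl6* and *Ccr1* were not called on either base.

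Relative to 11 macrophage genes, where 14.5% of probes were called higher and 17.5% lower, *Ccl3* was higher by 1.67, *Ccl4* by 1.85 and *Ccl5* by 0.67 (limma adjusted p of 0.000361, 0.000136 and 0.00598). *Ccr1*, a receptor of the myeloid cells, differed by 0.0012 on this scale, with a 95% interval of −0.28 to 0.28. *Ccl9* was lower by −0.51 (adjusted p = 0.023), though the adjusted p passed 0.05, reaching 0.055, where WT 3 or WT 4 was left out. *Ccl6* was at −0.22 (adjusted p = 0.47). *Ccl3*, *Ccl4* and *Ccl5* were thus called higher on all 4 scales, with *Ccl5* the least firmly, and *Ccl9* was called lower on the leukocyte and macrophage scales.

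**Figure D4:**
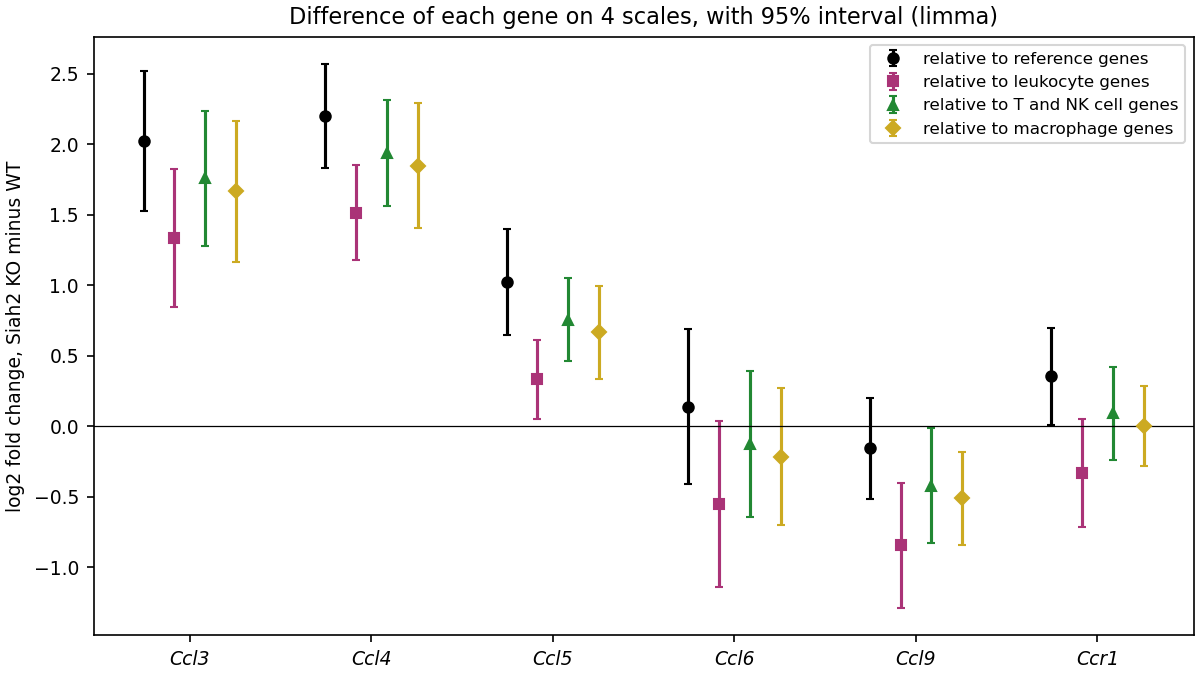
Log2 fold change (Siah2 KO minus WT) of the 6 genes with the 95% interval of the limma fit, relative to the reference genes as deposited (circles) and to the median of leukocyte (squares), T and NK cell (triangles) and macrophage genes (diamonds). The intervals of *Ccl3* and *Ccl4* lie above 0 on all 4 scales, those of *Ccl6* span 0 on all 4, and that of *Ccl9* lies below 0 on the 3 cell scales.

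Tumors also varied within each group, and the 6 genes fell into different patterns there. After the mean of each group was subtracted, the log2 values of *Ccl6* and *Ccl9* over the 10 tumors had a Pearson r of 0.95, those of *Ccl6* and *Ccr1* 0.83, and those of *Ccl9* and *Ccr1* 0.84. KO 6 and WT 6 were the lowest tumors of their groups in all 3 of these genes. *Ccl3* and *Ccl4* had an r of 0.47, and *Ccl3* and *Ccl6* one of −0.50. These values describe 10 tumors whose genes share 1 scaling factor per tumor, and no test was made of them.

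Among the 579 endogenous probes whose mean reached 20 normalized counts, the pattern most like *Ccl6* was *Ccl9*, followed by *Sbno2* and *Il1r1* at 0.92 each. For *Ccl9* the next were *Sbno2* at 0.93 and *Pdcd1lg2* at 0.92. For *Ccr1* they were *Tyk2* and *Sbno2* at 0.94 and *Bid* at 0.93. *Ccl5* was most like *Klrd1*, an NK cell receptor chain also named CD94, at 0.94, *Cfb*, complement factor B, at 0.94 and *Ctss*, a lysosomal protease, at 0.93. *Ccl3* was most like *Ulbp1* at 0.87, *Itgax*, which encodes CD11c, at 0.85 and *Atg10* at 0.83. *Ccl4* was most like *Smn1* at 0.91, *Marco*, a macrophage scavenger receptor, at 0.88 and *Reps1* at 0.86. The list of likest genes of *Ccl3* thus shared none with that of *Ccl4*, while *Sbno2* stood in the lists of *Ccl6*, *Ccl9* and *Ccr1*. Each list was picked as the highest r among 579 probes over 10 tumors, and how high r would reach by chance was not tested. Lists that share no gene therefore do not show that *Ccl3* and *Ccl4* had different patterns.

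**Figure D5:**
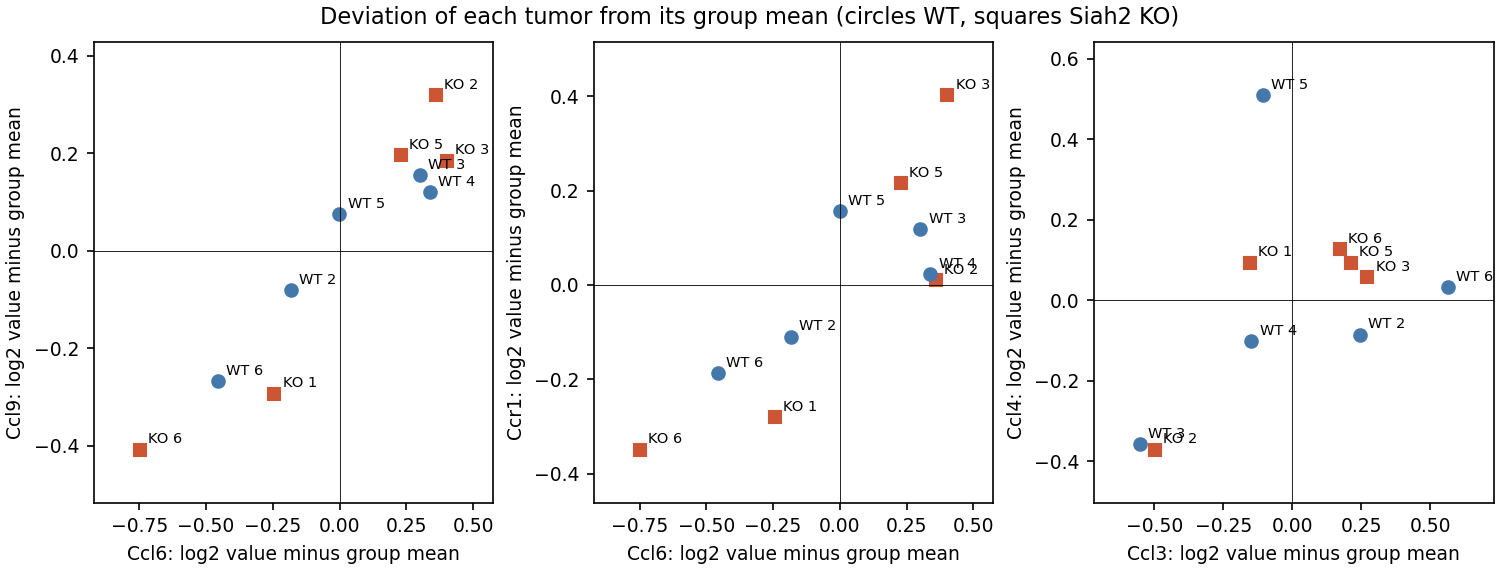
Each tumor's log2 value minus its group mean for *Ccl9* against *Ccl6* (r = 0.95), *Ccr1* against *Ccl6* (r = 0.83) and *Ccl4* against *Ccl3* (r = 0.47), with circles for WT and squares for Siah2 KO tumors. In the first 2 panels KO 6, WT 6 and KO 1 lie at the lower left.

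The panel holds 16 other CC ligands, of which 3 were higher in KO tumors, 3 were lower and 10 were not called. The 3 higher ones lie beside each other in the other CC ligand cluster of chromosome 11. *Ccl2*, which draws monocytes, was 13215 to 23264 normalized counts in KO and 4490 to 6918 in WT tumors (log2 fold change 1.53, adjusted p = 0.000229). *Ccl7*, likewise a monocyte chemokine, rose by 1.43 and *Ccl11*, the eosinophil chemokine eotaxin, by 1.72, both without overlap. Their neighbours *Ccl12* and *Ccl8* were not called, and *Ccl1* was lower by −1.36 with overlapping groups. On this chromosome 6 of 11 CC ligands were called higher and 1 lower, beside 31.3% and 9.74% of all probes. *Ccl3*, *Ccl4* and *Ccl5* are among these 6, and whether position on the chromosome matters was not tested. The other 2 lower ligands were *Ccl17*, at −3.46, and *Ccl22*, at −1.38, which both bind the receptor Ccr4. *Ccl17* was 1.03 to 22.7 normalized counts in KO and 43.3 to 171 in WT tumors, with 2 KO tumors at the floor. Over the alternatives described below, its log2 fold change was −3.76 to −1.72.

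Of 7 other CC receptors reported, 2 were lower and 0 higher, beside 9.74% and 31.3% of all probes. A further 1 CC receptor probe is not reported here, so the count does not cover every CC receptor of the panel. Only 2 of the 7 reached a mean of 20 normalized counts, and the lower ones, *Ccr3* and *Ccr4*, did not. *Ccr3*, a receptor of Ccl5 and Ccl11 on eosinophils and basophils, was 22.4, 19.9, 39.8, 10.3 and 3.75 normalized counts in WT 2, 3, 4, 5 and 6. In KO 1, 2, 3, 5 and 6 it was 1.11, 5.72, 1.26, 2.54 and 1.03, where 3 tumors were at the floor. The groups overlapped, since KO 2 was above WT 6. Its log2 fold change was −2.43 (adjusted p = 0.00613), but with values under 20 raised to 20 it was −0.22 with an adjusted p of 0.40. Of 5 genes of mast cells, basophils and eosinophils 1 was lower, with sums of 298 to 443 in KO and 367 to 772 in WT tumors and *Prg2* at the floor in at least 5 tumors. The lower gene was *Ms4a2*, with means of 7.55 in KO and 13.8 in WT tumors. *Tpsab1*, not called, was very uneven among WT tumors, at 69.0 ± 121 (SD) against 17.55 ± 2.53 in KO tumors, which widens the range of the WT sums. The part of these cells in *Ccr3* was not tested. *Ccr4* was also lower, by −1.60, with a mean of 6.29 normalized counts over the 10 tumors. *Ccr2*, the receptor of Ccl2, was 975 to 1609 in KO and 1130 to 1389 in WT tumors (log2 fold change −0.13, adjusted p = 0.50), and *Ccr7* was at −0.65 (adjusted p = 0.12). Under median scaling *Ccr2* and *Ccr7* were lower, by −0.40 and −0.91, with adjusted p of 0.023 and 0.019.

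Of 23 genes of the CXC, XC and CX3C families and *Ccrl2*, 11 were higher and 2 lower, beside 31.3% and 9.74% of all probes. *Cxcr6*, a receptor of effector T cells, had a log2 fold change of 1.70, at 208 to 396 normalized counts in KO against 60.0 to 155 in WT tumors. *Cx3cr1*, the fractalkine receptor of monocytes and macrophages, had one of −2.34, at 41.9 to 167 against 314 to 531. Neither of them overlapped between the groups.

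Genes of the tissue around the leukocytes moved as well, to be read beside 31.3% of all probes called higher and 9.74% lower. All 4 fibroblast genes were lower, with a median log2 fold change of −0.87 and sums of 10330 to 12330 in KO and 16490 to 21340 in WT tumors. Of 3 melanoma and neural crest genes 2 were lower, with sums of 224 to 405 against 438 to 594, and *S100b* was at the floor in 3 tumors. Of 6 endothelial genes 1 was higher and 2 were lower, and of 2 platelet genes 0 were called. The part of these shares of the tumor in the chemokine values was not tested.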

How the data were processed

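RNA of whole tumors was measured on NanoString's mouse panel of immune genes in cancer, which counts barcoded probe molecules. The signal deposited for a probe is a normalized count, made by the authors with nSolver by scaling to the geometric mean of 20 reference genes. From the values, a background constant had been subtracted and a floor of 1 set before scaling, and each tumor's factor was recovered from the equal steps of its low values (100% within 0.1 of a step). Tumors with a factor under 1 had floor values of 1, so a floor of 1 also held after scaling. The deposited values are therefore no raw counts, and no count model was used.

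Groups and numbers came from the labels. The fit was made on log2(value + 1) of 770 probes (750 endogenous, 20 reference) in limma 3.58.1 (lmFit and eBayes, two-sided) under R 4.3.3, with Benjamini-Hochberg adjustment. Fold changes on this scale understate those of low genes. Values relative to a list or to another gene were fitted in the same way. The p-values measure the spread between 5 tumors per group, and the precision is limited by that number. The 6 genes and all lists were chosen with earlier results of these data known. Named besides the 6 genes are *Ccr3* and the CC receptors with a mean of at least 20, the 4 highest and 4 lowest called genes of the rest of the chemokine family at that mean, the 3 genes most like each of the 6, and genes of the lists. *Ccr4*, *Ccl8* and *Ccl12* are not named by this rule and were picked with their values known. A further 1 CC receptor probe and a list of receptor signalling genes are not reported here.

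Alternatives were 3 other scalings (median, quantile, positive controls), a mean of at least 20, a pseudocount of 10, a floor of 20, the methods' t-test, the endogenous probes alone, an intensity trend, the replicate number as a block, the 8 tumors with a shared number, and each tumor left out. The list mean as a base and the data without both tumors numbered 6 were added after seeing the data. Steps were tested on simulated data. All 29 CC symbols were found in RefSeq. Promoters were aligned with Biopython 1.88 and plots made with matplotlib 3.10.9. The series' design text names another cell line, genotype and day than the labels, which were followed.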

Additional observations from a re-analysis of the deposited data

Results flagged for a closer look

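In 3 cases a tumor stood apart from the other 4 of its group by Dixon's test, out of 34 groups of 5 tumors tested for 17 genes, where chance flags about 5% of groups. *Ccl4* in KO 2 was 116.14 normalized counts, below the other Siah2 KO tumors, and still above every WT tumor. *Ccl2* in KO 3 was 23264.35 normalized counts, above the other KO tumors. *Ccl1* in KO 3 was 49.24 normalized counts, above the other KO tumors and within the WT range. Without KO 2 the log2 fold change of *Ccl4* was 2.29, without KO 3 that of *Ccl2* was 1.40 and that of *Ccl1* -1.68, each past the threshold.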

How the results depend on the processing

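*Ccl3* and *Ccl4* were called higher under all 12 alternatives in which the deposited scale was refitted and in all 10 fits that left out 1 tumor, with log2 fold changes of 1.76 to 2.12 and 1.93 to 2.20 over the alternatives. *Ccl5* was 0.63 to 1.14 (adjusted p up to 0.088), *Ccl6* −0.19 to 0.28, *Ccl9* −0.55 to −0.05 and *Ccr1* 0.03 to 0.43. Scaling mattered most. Median scaling gave 152 lower probes and *Ccl9* at −0.42 (adjusted p = 0.036), with 163 of its 315 calls higher (51.75%, against 76.27%). Quantile normalization gave 153 higher and 181 lower probes, *Ccl9* at −0.55, and *Ccl9* relative to T and NK cells at −0.57. Positive control scaling gave 95 probes (60 higher, 35 lower) and *Ccl5* at 0.86 (adjusted p = 0.088), and at 0.33 relative to leukocytes (adjusted p = 0.052). *Ccl9* relative to T and NK cells also passed with a mean of at least 20, at −0.61, and with the list mean, at −0.84, where *Ccl5* was at 0.33. *Ccl6* relative to leukocytes passed at −0.55 with a floor of 20. The ratio of *Ccl5* to *Ccl6* passed with a mean of at least 20 and with a floor of 20 (both 0.88), with a pseudocount of 10 (0.88), and with an intensity trend (0.88). Without both tumors numbered 6, *Ccl5* relative to leukocytes was 0.35 (adjusted p = 0.096).

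The replicate numbers were not taken to pair the tumors, because the deviations of same-numbered tumors correlated at over 0.1 in 3 of 4 pairs and not in all (r of 0.05, 0.14, 0.17 and 0.50 for numbers 2, 3, 5 and 6). Some shared variation by number is thus possible. With the number as a block in 8 tumors, 45 probes were lower and *Ccr1* passed at 0.43 (adjusted p = 0.048, and 0.10 in the same tumors without the block), while *Ccl5* relative to leukocytes (0.25), T and NK cells (0.65, adjusted p = 0.056, and 0.014 without the block) and *Ccr1* (0.46), and *Ccl9* relative to macrophages (−0.43), did not pass, nor did *Ccl1* (−1.48, adjusted p = 0.051). The block changed no other call, and 2 of 4 KO tumors correlated best with the WT tumor of their number. Those 8 tumors without a block gave 0.25 for *Ccl5* relative to leukocytes, 0.46 relative to *Ccr1*, −0.43 for *Ccl9* relative to macrophages and −0.48 relative to *Ccr1*, none past the threshold.

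With 1 tumor left out in turn, the values of the results that changed side were 0.26 to 0.44 for *Ccr1*, 0.27 to 0.39 for *Ccl5* and −0.70 to −0.42 for *Ccl6* relative to leukocytes, −0.58 to −0.34 for *Ccl9* relative to T and NK cells, −0.61 to −0.43 relative to macrophages, 0.69 to 1.03 for *Ccl5* relative to *Ccl6*, and 0.55 to 0.75 relative to *Ccr1*. The causes were not tested. No result turned its sign while passing the test. Low signal limits *Ccr3*, *Ccr4* and other genes near the floor.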
